A study of Mus musculus with 14 samples.

Results

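H3K9me3 after doxorubicin was set against H3K9me3 after vehicle in E14 cells, a male line of mouse embryonic stem cells, through the peak list of each treatment. A region was a unique interval of a list, and its value was its highest pileup, the number of sequenced fragments stacked over a summit, per 1000000 fragments left after duplicate removal. On the autosomes the doxorubicin list held 72692 of its 78890 regions and the vehicle list 56941 of its 60836. Together these 129633 regions come from 4 of the 14 chromatin immunoprecipitation sequencing (ChIP-seq) libraries of the series and are set among 351659 regions in its 7 lists. Doxorubicin cells received 1 µM doxorubicin, a topoisomerase II poison, for 6 h, followed by 6 h without drug. Vehicle cells received DMSO for 6 h and had their medium replaced in the same way. Both were grown on gelatin in medium with 2i and LIF, harvested 12 h after the start and fixed for 10 min in 1% formaldehyde. Both lists pool 2 libraries, so no value below has a replicate check, no test was possible and intervals are 95% and cover counting error only. A higher pileup from more cells carrying the mark and from more of it per cell cannot be told apart in such bulk chromatin.

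Trimethylation of histone H3 at lysine 9 marks heterochromatin. SETDB1, brought to DNA by KRAB zinc finger proteins through TRIM28, and the SUV39H enzymes write it, and HP1 proteins read it. In embryonic stem cells it is known for silencing retrotransposons, the imprinted allele of control regions, some germline genes and clusters of zinc finger genes.

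The promoters below show the DNA under the loci on which the results turn, as 300 bases from 250 before to 50 after a gene start, taken from RefSeq on GRCm38.p6 and printed 5′ to 3′ on the gene's strand. Capitals mark CpG dinucleotides, the sites of DNA methylation. The Igf2 promoter at chr7:142666767-142667066, minus strand, lay for 274 bases inside a doxorubicin region and for 0 inside a vehicle region, and has 2 CpGs. That of Zfp984 at chr4:147809739-147810038, minus strand, belongs to the gene with the lowest ratio among the named loci. Of the promoters that lay whole inside a region of both lists, with no input region and a summed pileup of at least 30, those of Gm46264 at chr11:117463657-117463956, minus strand, and Gm13391 at chr2:6465829-6466128, plus strand, had the highest and the lowest ratio. The germline promoters of Brdt at chr5:107330944-107331243, plus strand, and Dpep3 at chr8:105979370-105979669, minus strand, lay whole inside a region of both lists and have 23 and 12 CpGs.
Igf2: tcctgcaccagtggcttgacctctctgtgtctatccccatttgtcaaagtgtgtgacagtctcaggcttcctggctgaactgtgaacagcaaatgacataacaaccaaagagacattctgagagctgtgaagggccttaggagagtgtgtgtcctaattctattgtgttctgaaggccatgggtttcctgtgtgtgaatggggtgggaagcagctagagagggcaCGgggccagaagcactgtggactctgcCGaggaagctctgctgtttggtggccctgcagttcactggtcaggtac
Zfp984: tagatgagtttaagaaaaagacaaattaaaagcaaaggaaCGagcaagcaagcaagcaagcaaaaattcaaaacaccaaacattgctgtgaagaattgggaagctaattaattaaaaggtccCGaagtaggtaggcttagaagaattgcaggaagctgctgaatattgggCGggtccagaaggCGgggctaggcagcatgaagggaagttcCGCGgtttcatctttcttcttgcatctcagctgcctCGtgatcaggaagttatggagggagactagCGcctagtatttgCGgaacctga
Gm46264: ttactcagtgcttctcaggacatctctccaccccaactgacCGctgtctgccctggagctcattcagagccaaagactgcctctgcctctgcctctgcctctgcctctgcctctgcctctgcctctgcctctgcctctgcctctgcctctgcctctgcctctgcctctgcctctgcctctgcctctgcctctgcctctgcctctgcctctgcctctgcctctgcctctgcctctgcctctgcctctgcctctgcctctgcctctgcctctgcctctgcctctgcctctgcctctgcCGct
Gm13391: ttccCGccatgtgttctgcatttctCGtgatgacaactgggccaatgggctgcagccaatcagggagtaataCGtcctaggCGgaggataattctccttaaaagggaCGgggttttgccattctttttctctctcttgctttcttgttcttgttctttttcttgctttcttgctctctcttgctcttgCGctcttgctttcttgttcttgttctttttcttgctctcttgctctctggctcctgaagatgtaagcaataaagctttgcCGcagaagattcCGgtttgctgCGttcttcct
Brdt: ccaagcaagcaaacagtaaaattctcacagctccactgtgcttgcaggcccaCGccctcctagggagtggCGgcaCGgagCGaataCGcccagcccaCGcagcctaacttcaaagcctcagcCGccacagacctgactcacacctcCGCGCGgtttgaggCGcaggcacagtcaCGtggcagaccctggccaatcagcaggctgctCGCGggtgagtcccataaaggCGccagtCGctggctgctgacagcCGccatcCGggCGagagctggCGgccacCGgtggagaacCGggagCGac
Dpep3: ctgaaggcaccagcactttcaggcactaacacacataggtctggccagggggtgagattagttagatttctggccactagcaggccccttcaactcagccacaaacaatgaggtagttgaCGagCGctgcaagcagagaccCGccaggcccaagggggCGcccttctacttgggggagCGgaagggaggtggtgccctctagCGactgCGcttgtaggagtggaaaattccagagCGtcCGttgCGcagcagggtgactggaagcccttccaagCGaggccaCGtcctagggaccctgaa

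Fragments after filtering numbered 14402634 in doxorubicin and 15992125 in vehicle. The lowest pileup listed was 7 fragments in doxorubicin and 8 in vehicle, or 0.486 per 1000000 in doxorubicin and 0.500 in vehicle. Cell type was checked against H3K27ac, a mark of active promoters and enhancers, at gene ends. All 14 pluripotency markers had it in both treatments, and 6 of 14 fibroblast markers had it in doxorubicin against 2 in vehicle. Of 12 markers of differentiated lineages 6 had it in doxorubicin and 8 in vehicle. The H3K27ac list was longer in doxorubicin, with 112259 regions against 82177 in vehicle. The part of list length in these marker counts, and of these differences in the results, was not tested. H3K9me3 was listed at 0 of the 14 pluripotency markers in either treatment.

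Doxorubicin chromatin had the higher H3K9me3 pileup at most shared loci. Regions overlapping by at least 1 bp were linked into 44255 loci, of which 37961 (85.8%) paired 1 doxorubicin region with 1 vehicle region. Across these one-to-one loci the median scaled pileup was 1.25 per 1000000 in doxorubicin and 1.00 in vehicle. The median log2 ratio of doxorubicin over vehicle was 0.34, a 1.27-fold difference, with quartiles of 0.04 and 0.64 and an SD of 0.46 across loci. Doxorubicin was higher at 29509 loci, or 77.7% (Wilson interval 77.3% to 78.2%). It was at least 2-fold higher at 2625 loci (6.91%) and at least 2-fold lower at 178 (0.469%). These counts depend on the depth scale: with the median log2 ratio set to 0, 540 loci were at least 2-fold higher and 866 at least 2-fold lower. The size of the shift changed with signal. Loci were ranked by mean scaled pileup and cut into 10 classes of like size. The median log2 ratio was 0.01 in class 1, the weakest, 0.15 in class 2, between 0.33 and 0.46 in classes 3 to 9 and 0.38 in class 10, the strongest. Pileups are small whole numbers at most loci and the doxorubicin libraries are the shallower ones, and the part of either in the ratios was not tested.

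**Figure D1:**
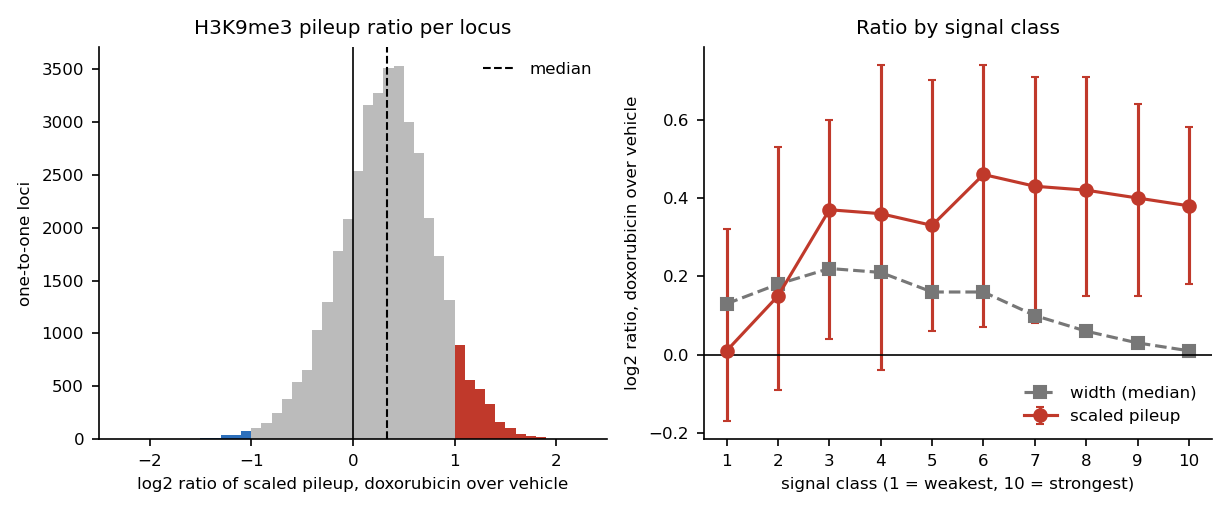
Left, number of one-to-one loci by log2 ratio of scaled H3K9me3 pileup, doxorubicin over vehicle, with loci past 2-fold higher in red and past 2-fold lower in blue and the median as a dashed line. Right, log2 ratio by signal class, from the weakest loci to the strongest: red points are medians of pileup with quartile bars and grey squares medians of width. The pileup ratio is 0.01 in class 1 and 0.46 in class 6, while the width ratio is 0.22 at its highest in class 3 and 0.01 in class 10.

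At protein-coding genes the highest ratios were those of Gm9805 (log2 ratio 1.78) and Igf2 (1.67), followed by Vmn2r44 and Frmd8 (1.46 each). Named loci lie within 1000 bp of a gene end, have a summed pileup of at least 40 and overlap no input or untagged region, which 353 loci satisfied. Of these, 20 (5.67%) were at least 2-fold higher and 1 (0.283%) at least 2-fold lower, near the 6.91% and 0.469% over all one-to-one loci. The locus of Igf2, the paternally expressed insulin-like growth factor 2, at chr7:142666793-142668932, had a pileup of 40 in doxorubicin and 14 in vehicle. Its log2 ratio was 1.67, a ratio of 3.17 (exact interval 1.69 to 6.31), and its region was 2140 bp wide in doxorubicin and 1169 bp in vehicle. The doxorubicin region reached over the gene start printed above, whereas the vehicle region lay upstream of it. The locus runs across the annotated start of Igf2 and lies within Igf2os, a long non-coding RNA gene. No p53, H3K27ac or input region overlapped it.

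Gm9805 had the highest ratio of the named loci. Its pileup was 31 in doxorubicin and 10 in vehicle (log2 ratio 1.78, ratio interval 1.64 to 7.87), over regions of 622 bp in doxorubicin and 625 bp in vehicle. Among the vomeronasal receptor genes, which encode pheromone receptors, Vmn2r44 at chr7:8384221-8385838 had 52 in doxorubicin and 21 in vehicle (log2 ratio 1.46). Vmn2r43, in the same cluster on chromosome 7, had 33 in doxorubicin and 14 in vehicle (log2 ratio 1.39), with both regions 480 bp wide. At these neighbours doxorubicin was thus higher over regions of like width. The Frmd8 locus, outside the gene at chr19:5846701-5850338, had 42 fragments in doxorubicin and 17 in vehicle (log2 ratio 1.46, ratio interval 1.53 to 5.14), and its region was 3638 bp wide in doxorubicin and 1872 bp in vehicle. It begins 1221 bp from Neat1, which encodes the scaffold RNA of nuclear paraspeckles, and is the only one of the 20 named loci that overlapped a p53 region. H3K27ac was listed there in both treatments.

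The other 5 of the 10 highest had log2 ratios of 1.15 to 1.32. Bcl2l14, a member of the BCL2 family, had 35 in doxorubicin and 16 in vehicle (log2 ratio 1.28), with H3K27ac in doxorubicin only. Gbp9, of the interferon-inducible guanylate-binding proteins, had 41 in doxorubicin and 19 in vehicle (log2 ratio 1.26), and its region was narrower in doxorubicin, 1435 bp against 2179 bp in vehicle. Gm7995, Gm11239 and Cd200r2 had log2 ratios of 1.32, 1.29 and 1.15. Each of these 10 genes had a ratio interval above 1, but they were picked for high ratios and the intervals do not allow for that. The median ratio over all one-to-one loci was 1.27, which the interval of Cd200r2, 1.13 to 4.56, included.

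Loci lower in doxorubicin were fewer, and 1 was past 2-fold. A locus inside Zfp984, a zinc finger gene, at chr4:147811102-147811979, had a pileup of 12 in doxorubicin and 50 in vehicle, a log2 ratio of -1.91 and a ratio of 0.27 (exact interval 0.13 to 0.51). A second one-to-one locus at the other end of Zfp984 had 10 in doxorubicin and 27 in vehicle (log2 ratio -1.28), and overlapped an untagged region. Between them, the locus over its printed promoter had 52 in doxorubicin and 68 in vehicle (log2 ratio -0.24). Doxorubicin values were thus lower at these 3 places, most at the gene's ends. Over the promoter the difference was small, and no interval is given for it. H3K27ac overlapped the first locus in vehicle only.

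The remaining 9 named loci with the lowest ratios had log2 ratios of -0.71 to -0.43. Olfr725, an olfactory receptor gene, had 16 in doxorubicin and 29 in vehicle. Hspa14, which encodes a ribosome-associated HSP70, had 16 in doxorubicin and 28 in vehicle. C7, a component of the complement membrane attack complex, had 24 in doxorubicin and 38 in vehicle. Etaa1, which encodes an activator of the ATR kinase, had 19 in doxorubicin and 29 in vehicle. The ratio interval of each of the 9 included 1. The other 5 were Gm8138, Adam4, Gm19428, Slc35g2 and Gm46305.

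The 5 strongest one-to-one loci free of input and untagged regions had log2 ratios of 0.13 to 0.30. How reads matching several places were counted there is not stated by the labels or headers. The highest lay 4943 bp from Gm42030 on chromosome 8, with a pileup of 3966 in doxorubicin and 3709 in vehicle, or 275 per 1000000 in doxorubicin and 232 in vehicle (log2 ratio 0.25). Those near Gm13533 and within Gm31055 had log2 ratios of 0.30 and 0.29. Those at 2310043M15Rik and within Lama1, a laminin gene, had 0.13 and 0.19. Counting error is smaller here, and all 5 log2 ratios were above 0 and below the median of all loci. The ratio intervals at Gm13533 (1.13 to 1.33) and Gm31055 (1.12 to 1.34) nevertheless included the median ratio of all loci, 1.27. That at 2310043M15Rik (1.00 to 1.20) reached 1. Those at Gm42030 (1.14 to 1.24) and Lama1 (1.03 to 1.26) lay between 1 and 1.27.

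Among 41 imprinted genes found on the autosomes, 3 had an H3K9me3 region within 1000 bp of an end in doxorubicin and 3 in vehicle, and 2 were common to both. Besides Igf2, these were Commd1, which hosts an imprinted gene and had 27 fragments in doxorubicin and 23 in vehicle over a locus split into 2 doxorubicin regions. Rtl1, an imprinted retrotransposon-derived gene, had a region of 11 fragments in doxorubicin only. Igf2r, whose product clears Igf2, had one of 18 fragments in vehicle only. Of 33 germline genes 5 had the mark in doxorubicin and 4 in vehicle, and their 5 one-to-one loci had a median log2 ratio of 0.01, against 0.34 over all loci. The share of all genes with the mark is not given for these lists or those that follow. Their gene counts are a description only.

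Values at these germline genes were close in both treatments. Brdt, a testis bromodomain protein gene, had 14 in doxorubicin and 14 in vehicle at one locus, and 10 in doxorubicin and 11 in vehicle at the one over its promoter. Dpep3, a testis-expressed dipeptidase gene, had 21 in doxorubicin and 17 in vehicle. Hormad2, of the meiotic chromosome axis, had 12 in doxorubicin and 15 in vehicle. Meiob, needed for meiotic recombination, had 18 in doxorubicin and 25 in vehicle. Tdrkh, which acts in piRNA maturation, had 11 in doxorubicin only. None was past 2-fold in either direction, and every ratio interval included 1.

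Genes that stem cells switch on when they enter a rare state resembling the 2-cell embryo formed a further list. The mark was listed at 9 of 32 in doxorubicin and 8 in vehicle, with 6 common, again without the share over all genes. Of their 9 one-to-one loci 8 (88.9%, Wilson interval 56.5% to 98.0%) were higher in doxorubicin, against 77.7% of all loci. The 9 loci lie at 6 genes, several of them at the neighbours Tdpoz3 and Tdpoz4, and the interval treats them as independent. At least 2-fold higher were 2, against 6.91% of all loci, and 0 were at least 2-fold lower, with a median log2 ratio of 0.67. Tdpoz3 had 3 such loci, with 31 in doxorubicin and 11 in vehicle (log2 ratio 1.65) at the first. At the other two it had 25 in doxorubicin and 15 in vehicle, and 16 in doxorubicin and 16 in vehicle. Sp110, a nuclear body protein gene, had 25 in doxorubicin and 10 in vehicle (log2 ratio 1.47) at one locus. It also had a region of 10 in doxorubicin only and one of 16 in vehicle only. Over 1 of its promoters it had 21 in doxorubicin and 19 in vehicle, and another promoter overlapped a region of 18 in doxorubicin only. The 2 loci past 2-fold, at Tdpoz3 and Sp110, both overlapped an input or untagged region, and the part of that in their ratios was not tested. Zscan4b, of a family that acts at telomeres, had 24 in doxorubicin and 15 in vehicle, and Zfp352 had 23 in doxorubicin and 16 in vehicle, with ratio intervals that included 1. Zscan4b also had a region of 8 in doxorubicin only, and one of 11 in vehicle only that lay over its promoter. Beside Tcstv3 a very strong locus had 2904 in 2 doxorubicin regions and 2641 in 1 vehicle region (log2 ratio 0.29), and a weak one had 14 in doxorubicin and 20 in vehicle. H3K27ac was listed at 5 of the 32 genes in doxorubicin and 1 in vehicle, and its list was the longer in doxorubicin (112259 regions against 82177 in vehicle).

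Of 31 genes of the H3K9 methylation machinery, the same 3 had the mark in both treatments, and their 4 one-to-one loci had a median log2 ratio of -0.07. Atf7ip, a partner of SETDB1, had 24 in doxorubicin and 25 in vehicle at one locus and 10 in doxorubicin and 14 in vehicle at another. Resf1, which also acts with SETDB1, had 10 in doxorubicin and 13 in vehicle. Zfp445, a zinc finger protein gene known for imprint protection, had 12 in doxorubicin and 12 in vehicle, and a further region of 18 in doxorubicin only.

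The large gene families had different medians, over few loci at gene ends. Their counts of genes with the mark come from a longer doxorubicin list, 72692 autosomal regions against 56941 in vehicle. The share over all genes is not given here, so a higher count in doxorubicin is not a trait of a family. Zfp genes had the mark at 81 of 360 in doxorubicin and 73 in vehicle, and their 59 one-to-one loci had a median log2 ratio of 0.15, with 2 (3.39%) at least 2-fold higher and 2 (3.39%) at least 2-fold lower, against 6.91% and 0.469% over all loci. The 2 higher were Zfp870, with 19 in doxorubicin and 9 in vehicle, and Zfp820, with 33 in doxorubicin and 18 in vehicle and a p53 region. Both of the lower were the loci of Zfp984. Olfactory receptor genes had the mark at 48 of 1100 in doxorubicin and 24 in vehicle. Their 22 one-to-one loci had a median of 0.42, with 0 at least 2-fold higher and 1 lower, among the highest Olfr1156 (19 in doxorubicin, 11 in vehicle) and the lowest at Olfr412 (9 in doxorubicin, 27 in vehicle, log2 ratio -1.43). Vomeronasal receptor genes had the mark at 31 of 352 in doxorubicin and 21 in vehicle. Their 19 one-to-one loci had a median of 0.26, and 3 (15.8%, Wilson interval 5.52% to 37.6%) were at least 2-fold higher, at Vmn2r44, Vmn2r43 and Vmn1r56. The median over all one-to-one loci was 0.34, so the Zfp and vomeronasal medians lay below it and the olfactory one above it. Quartiles were -0.17 and 0.40 at Zfp, 0.28 and 0.65 at olfactory and 0.10 and 0.46 at vomeronasal loci, so the families overlapped widely. The Zfp difference from other loci was -0.19 and shrank to -0.07 without input or untagged regions and to -0.09 at a −log10 q of at least 5. It was -0.18 at a fold enrichment of at least 4. At a scaled pileup of at least 1, and with equal numbers of regions, it grew to -0.24.

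Over autosomal windows of 1 Mb these 3 families ranked otherwise, with the vomeronasal windows highest and the Zfp windows lowest. Windows with 3 or more vomeronasal receptor genes, 34 in all, had 2.65 Mb covered in doxorubicin and 2.11 Mb in vehicle, a ratio of 1.26, and their 1230 one-to-one loci had a median log2 ratio of 0.41. In these windows 135 loci were at least 2-fold higher (Wilson interval of the share 9.35% to 12.8%) and 2 lower (0.163%), against 6.91% and 0.469% over all loci. Windows with 3 or more Zfp genes, 36 in all, had 2.77 Mb in doxorubicin and 2.58 Mb in vehicle, a ratio of 1.07, with a median of 0.28 over 1246 loci. There 74 loci were at least 2-fold higher (Wilson interval of the share 4.76% to 7.39%) and 11 lower (0.883%), a share of higher loci near that over all loci. The 61 windows with 3 or more olfactory receptor genes lay between, at a covered ratio of 1.16 and a median of 0.36. Over all 2414 windows the covered ratio was 1.17 and doxorubicin covered more in 2155 (89.3%).

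The windows with the largest differences were chosen on their values and are a description. The largest gain was at chr7:11000001-12000000, which holds Zscan4c, Zscan4d, Zscan4f and Vmn1r72 to Vmn1r76, with 216 kb covered in doxorubicin and 132 kb in vehicle. Next came chr7:33000001-34000000, a cluster of Scgb genes for secretoglobins, with 146 kb in doxorubicin and 80.4 kb in vehicle. It was followed by chr7:14000001-15000000 with Sult2a genes, with 129 kb in doxorubicin and 73.9 kb in vehicle. The window of Sp110, Sp140 and Sp100 at chr1:85000001-86000000 had 205 kb in doxorubicin and 155 kb in vehicle. That of the prolactin family gene Prl2c3 at chr13:12000001-13000000 had 162 kb in doxorubicin and 114 kb in vehicle. Its median log2 ratio, 0.85, was the highest among the 598 windows with at least 20 one-to-one loci. Next in median among those were the windows of Vmn2r98 to Vmn2r103 at chr17:19000001-20000000 (0.70) and of Vmn2r41 to Vmn2r45 at chr7:8000001-9000000 (0.69).

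Vehicle covered more than doxorubicin in 258 of the 2414 windows, among them 6 of the 36 Zfp windows. The largest loss was at chr8:20000001-21000000, with Defb33, where doxorubicin covered 251 kb and vehicle 294 kb. In 109 one-to-one loci there the median log2 ratio was -0.06. The next were chr13:62000001-63000000 with Zfp808, Zfp935 and Zfp934 (166 kb in doxorubicin, 203 kb in vehicle) and chr2:177000001-178000000 with Zfp970 and Zfp972 (139 kb in doxorubicin, 166 kb in vehicle). At chr4:147000001-148000000, which holds Zfp978 to Zfp991 with Zfp984 and Rex2, 317 kb were covered in doxorubicin and 343 kb in vehicle. The median log2 ratio of its 143 one-to-one loci was 0.15. Copies within such clusters are alike in sequence, and how reads matching several copies were placed is not stated by the labels or headers.

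**Figure D2:**
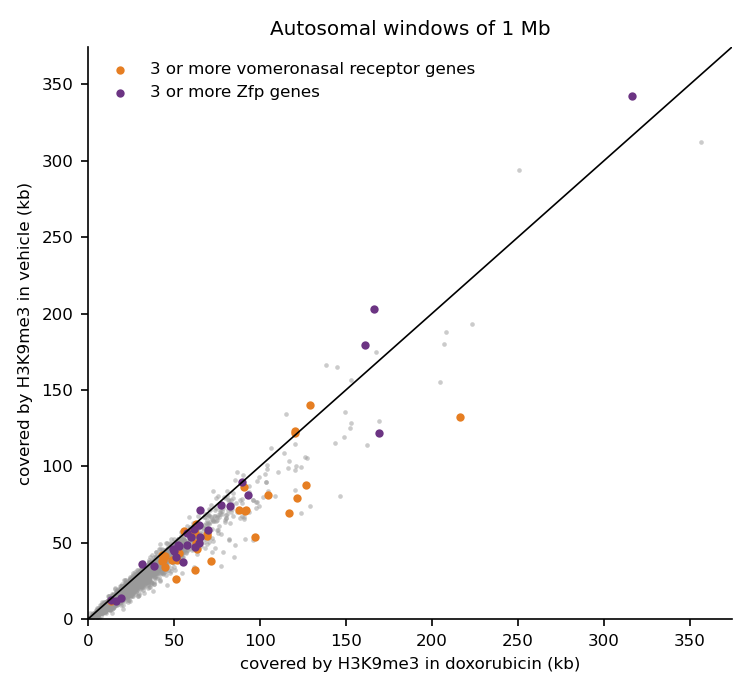
Each point is an autosomal window of 1 Mb, placed by the kb covered by H3K9me3 in doxorubicin (horizontal) and in vehicle (vertical), with the line of equality. Windows with 3 or more vomeronasal receptor genes are orange and those with 3 or more Zfp genes purple, and 7 windows with both are orange. Most windows lie below the line, where doxorubicin covers more, and the Zfp windows with 166 and 317 kb in doxorubicin lie above it.

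Shared loci were slightly wider in doxorubicin. One-to-one regions had a median width of 810 bp in doxorubicin and 700 bp in vehicle, with a median log2 ratio of 0.09, and 60.8% were wider. At least 2-fold wider were 3409 (8.98%) and at least 2-fold narrower 1254 (3.30%). Among the 20 named loci 1, at Gm11239, was past 2-fold wider (1499 bp in doxorubicin, 647 bp in vehicle) and 1, at Adam4, past 2-fold narrower (321 bp in doxorubicin, 857 bp in vehicle). The median width log2 ratio was 0.13 in class 1 and 0.22 in class 3, its highest, and lower in the stronger classes. In class 10 it was 0.01, where the log2 ratio of pileup was 0.38, so the strongest loci differed in height and hardly in width. In class 1 both pileups lie near the lowest value of their list, which limits how far their ratio can depart from 1.

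Longer loci kept their covered length but were cut into more pieces in doxorubicin. Loci spanning 1000 to 2000 bp had 1.12 times the covered length in doxorubicin, those of 4000 to 8000 bp 1.01 times and those over 8000 bp 1.01 times. Of the 848 loci over 8000 bp, 36.6% held more regions in doxorubicin and 23.0% more in vehicle. They averaged 1.71 regions per locus in doxorubicin and 1.52 in vehicle. The longest region shows this. A vehicle region of 55446 bp near Gm8270 at chr10:83403801-83459246 overlapped 7 doxorubicin regions that together covered 49345 bp, with a highest scaled pileup of 4.65 in doxorubicin and 4.00 in vehicle.

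**Figure D3:**
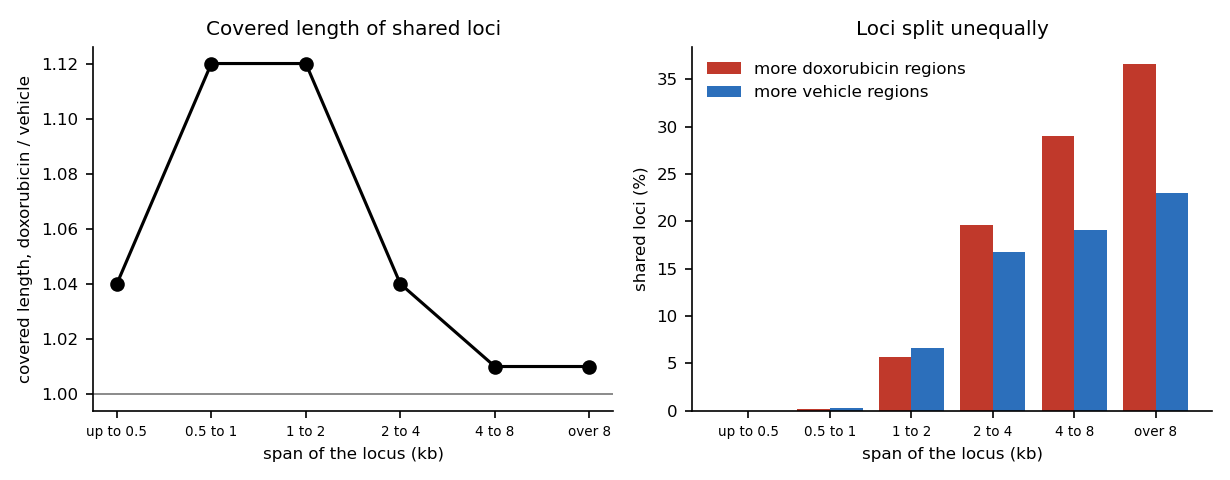
Left, covered length of shared loci, doxorubicin over vehicle, by the span of the locus in kb. Right, share of shared loci with more doxorubicin regions (red) or more vehicle regions (blue). The covered ratio is 1.12 at 0.5 to 2 kb and 1.01 over 4 kb, and the red bars exceed the blue from 2 kb upward.

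Joining of neighbouring regions ran in both directions. Of 48469 doxorubicin regions with a partner, 3326 (6.86%, Wilson interval 6.64% to 7.09%) overlapped 2 or more vehicle regions. Of 47903 vehicle regions with a partner, 3719 (7.76%, 7.53% to 8.01%) overlapped 2 or more doxorubicin regions. The order of these 2 counts turned with equal numbers of regions in both lists, to 3290 in doxorubicin and 3006 in vehicle. Most joined exactly 2, and 281 doxorubicin and 421 vehicle regions joined 3 or more.

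Single loci illustrate each direction. Inside Flg2, a gene for an epidermal filaggrin-family protein, 1 doxorubicin region of 18394 bp overlapped 4 vehicle regions, with a highest pileup of 274 in doxorubicin and 187 in vehicle. Near Prl2c3 a doxorubicin region of 16642 bp overlapped 5 vehicle regions, with 152 in doxorubicin and 141 in vehicle. Both overlapped an input or untagged region. Near the pseudogene Vmn1r-ps18 a doxorubicin region of 12677 bp overlapped 6 vehicle regions that covered 5970 bp, with 27 in doxorubicin and 15 in vehicle. In the other direction, a vehicle region of 16048 bp inside Golga3, a Golgi protein gene, overlapped 5 doxorubicin regions, with 91 in doxorubicin and 79 in vehicle. At Zfp936 a vehicle region of 11700 bp overlapped 5 doxorubicin regions, with 86 in doxorubicin and 74 in vehicle, and overlapped an input or untagged region. Near 1700020N01Rik a vehicle region of 10643 bp overlapped 5 doxorubicin regions, with 58 in doxorubicin and 75 in vehicle. The split doxorubicin regions were thus higher at Golga3 and Zfp936 and lower near 1700020N01Rik.

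Regions of each list less than 5000 bp apart were stitched into domains, 39534 in doxorubicin and 33836 in vehicle. Here joining was more frequent in doxorubicin: 706 doxorubicin domains (2.40% of those with a partner) overlapped 2 or more vehicle domains and 213 vehicle domains (0.712%) overlapped 2 or more of doxorubicin. At 1000 bp the counts were 1109 in doxorubicin and 922 in vehicle, and at 10000 bp 738 in doxorubicin and 188 in vehicle. With equal numbers of regions they were 443 in doxorubicin and 290 in vehicle at 5000 bp. Domains of at least 10 kb numbered 2674 in doxorubicin and 1861 in vehicle, and those of at least 20 kb 633 in doxorubicin and 382 in vehicle. Those of at least 50 kb numbered 52 in doxorubicin and 26 in vehicle and those of at least 100 kb 6 in doxorubicin and 5 in vehicle. Doxorubicin domains spanned 120 Mb in all and vehicle domains 94.1 Mb, of which regions covered 64.6% in doxorubicin and 70.7% in vehicle.

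The bridged gaps mostly held regions of 1 list. Of 785 gaps between vehicle domains that a doxorubicin domain bridged, 677 (86.2%) held a region listed in doxorubicin only, and the 1283 such regions had a median scaled pileup of 0.833 per 1000000, against 0.764 over all doxorubicin-only regions. The 224 gaps bridged in vehicle held a vehicle-only region in 176 (78.6%), with a median of 0.688, the same as over all vehicle-only regions. Domains of 1 list lie more than 5000 bp apart, so bridging needs regions of the other list in or reaching into the gap. Both shares thus follow largely from the stitching rule and are a description. Doxorubicin-only regions, 24223 in all, lay a median of 4051 bp from the nearest vehicle region, and 53.7% were within 5000 bp of one. Vehicle-only regions, 9038 in all, lay 1533 bp from the nearest doxorubicin region.

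**Figure D4:**
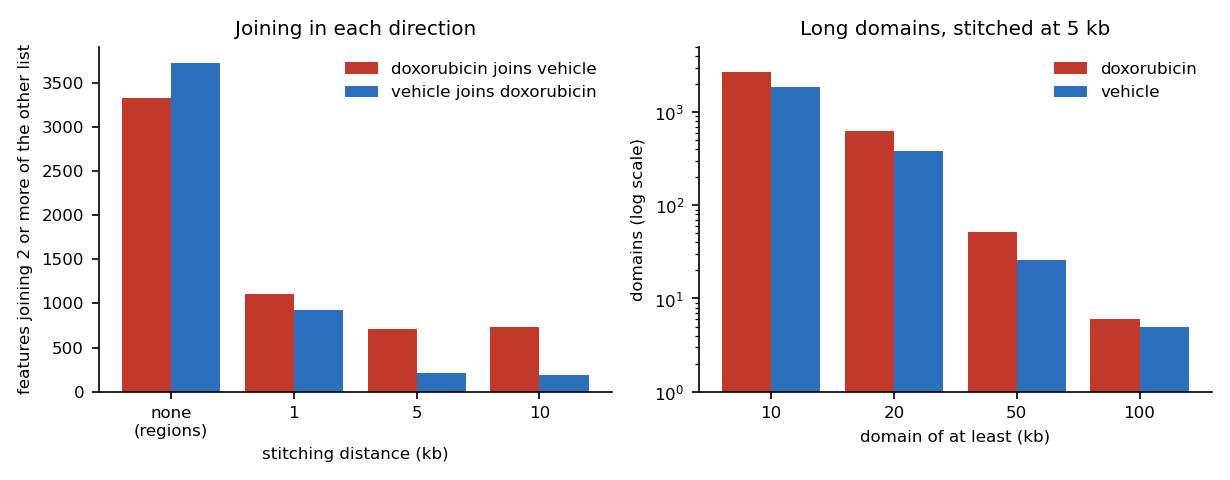
Left, number of regions (no stitching) and of domains stitched at 1, 5 and 10 kb that overlap 2 or more of the other list, doxorubicin in red and vehicle in blue. Right, number of domains stitched at 5 kb by minimum length, on a log scale. Vehicle regions join more often (3719 against 3326 for doxorubicin), whereas doxorubicin domains join more often at 5 kb (706 against 213 for vehicle).

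At most 5 vehicle domains were joined by 1 doxorubicin domain, which held for 4 domains. The longest of these, also the longest of all in doxorubicin, lay over Prl2c3 at chr13:12764167-12940882. It spanned 176716 bp with 123076 bp covered in doxorubicin, where vehicle had 5 domains with 84609 bp covered, and its highest scaled pileup was 18.1 in doxorubicin and 14.5 in vehicle. Over Sp110 and Sp140 at chr1:85541309-85610722 a doxorubicin domain held 31 regions and joined 5 vehicle domains with 23. At chr7:33498068-33602862 with Scgb2b21, 39 doxorubicin regions covered 39578 bp, where 17 vehicle regions in 4 domains covered 21685 bp. At chr7:11014398-11116950 with Zscan4-ps1, 41 doxorubicin regions covered 44586 bp and 22 vehicle regions 23366 bp. The Sp110, Scgb2b21 and Zscan4-ps1 spans gained regions as well as bridges. The Prl2c3 span did not, with 55 regions in doxorubicin and 59 in vehicle, though its covered length was greater in doxorubicin.

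The reverse case lay on chromosome 8. At chr8:20494071-20649859 a vehicle domain of 155789 bp with 81155 bp covered met 3 doxorubicin domains with 66976 bp covered, yet the highest scaled pileup was 31.0 in doxorubicin and 21.4 in vehicle. At chr8:20312929-20442737 vehicle had 73933 bp in 1 domain and doxorubicin 58500 bp in 4. At Zfp978 and Zfp988, chr4:147328582-147437579, a vehicle domain of 108998 bp met 3 doxorubicin domains. The doxorubicin domains there extend further, to 190014 bp in all.

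Every autosome shared the direction of the whole. Covered length was higher in doxorubicin on 19 of 19 autosomes, with ratios from 1.09 on chromosome 13 to 1.36 on chromosome 19. The median log2 ratio of one-to-one loci was above 0 on all 19, from 0.30 to 0.45. Chromosomes 19, 18 and 7 had the 3 highest covered ratios (1.36, 1.24 and 1.28) and the 3 highest medians (0.45, 0.43 and 0.40). Doxorubicin domains joined more often than vehicle domains on 19 of 19 autosomes, whereas vehicle regions joined more often on 15 and doxorubicin regions on 4. The X chromosome, single in this line, had 5362 regions in doxorubicin and 3282 in vehicle and a covered ratio of 1.43. Its 2290 one-to-one loci had a median of 0.37, within the range of the autosomes. On X, 2515 regions were listed in doxorubicin only and 382 in vehicle only.

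**Figure D5:**
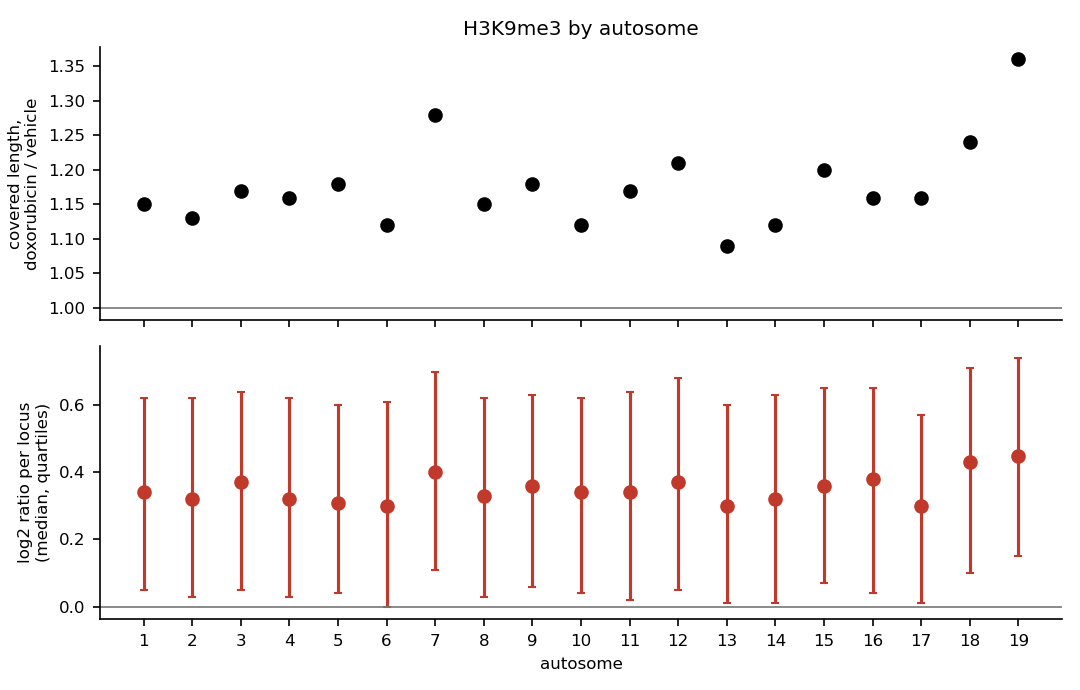
Top, covered length of H3K9me3 regions per autosome, doxorubicin over vehicle, with a line at 1. Bottom, median log2 ratio of scaled pileup of one-to-one loci with quartile bars and a line at 0. All 19 autosomes lie above both lines, between 1.09 and 1.36 in covered length and between 0.30 and 0.45 in log2 ratio.

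Loci that also carried a p53 region had higher ratios. The p53 list comes from an HA ChIP of cells with HA-tagged p53, whose treatment the labels do not give. At 1595 one-to-one loci over a p53 region the median log2 ratio was 0.49, with 11.7% at least 2-fold higher, against 0.34 and 6.70% at the 36366 others. Median scaled pileup was 1.74 in doxorubicin and 1.19 in vehicle at the loci with p53, and 1.25 in doxorubicin and 1.00 in vehicle at those without. Since these loci are stronger, they were compared within the 10 signal classes. The median was higher with p53 in 9 of 10, by 0.05 to 0.28, and the difference was 0.00 in class 3. Without input or untagged regions the median at 1384 loci was again 0.49. At the 1037 of these with H3K27ac in doxorubicin it was 0.53, and at the 347 without it 0.41. None of these differences has a replicate check.

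The H3K9me3 ratio also differed with H3K27ac at the locus. At 1543 one-to-one loci with H3K27ac in doxorubicin only the median log2 ratio of H3K9me3 was 0.41, and 10.6% were at least 2-fold higher. At the 1032 with H3K27ac in vehicle only it was 0.15 and 3.97%. With H3K27ac in both (4086 loci) it was 0.36, and with none (31300 loci) 0.34. H3K27ac itself, compared in the same way, had a median log2 ratio of 0.17 over 44261 one-to-one loci and a covered ratio of 1.22. Its regions joined more in vehicle (4188 in doxorubicin, 5040 in vehicle) and its domains more in doxorubicin (2178 in doxorubicin, 1161 in vehicle). These orders are those of H3K9me3, whose covered ratio was 1.17, so they are not particular to H3K9me3.

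Loci over input regions shifted as well. The 868 one-to-one loci that overlapped a region of the input list, made from doxorubicin cells only, had a median log2 ratio of 0.24, and the 1354 over an untagged region 0.30. The 5 strongest loci over input had pileups of 18882 to 96206 in doxorubicin and 18149 to 98402 in vehicle, with log2 ratios of 0.06 to 0.21. With the median over input regions set to 0, a scale chosen after seeing the data, the median log2 ratio of all loci was 0.10, and 877 loci were at least 2-fold higher and 538 lower. Direction was thus the same, and most of the size of the shift depends on the scale.

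Position in genes made little difference. Loci at a promoter, 354 in all, had a median log2 ratio of 0.34, those inside genes 0.30 and those outside genes 0.37. Of the promoter loci 21 (5.93%) were at least 2-fold higher and 0 at least 2-fold lower (Wilson interval up to 1.07%). Both are near the 6.91% and 0.469% over all one-to-one loci. Of 31396 autosomal promoter windows, 308 of 287 genes overlapped a one-to-one locus in both lists. These held a median of 5 CpGs, against 7 over all autosomal windows. The hexamer TGCCGC, which the imprint-protecting factor ZFP57 binds when methylated, was searched on both strands and is in 8.44% of the 308 and in 11.6% of all. The printed promoters of Gm46264 and Gm13391 hold it, as does that of Brdt. Gm46264 had a pileup of 33 in doxorubicin and 12 in vehicle (log2 ratio 1.61) and Gm13391 11 in doxorubicin and 20 in vehicle (log2 ratio -0.71).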

How the data were processed

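H3K9me3 ChIP used an Active Motif antibody, per the labels' protocols. The submitters' processing notes name Bowtie2 2.2.6 as aligner. The handling of reads that match several places is not stated there. For each list the authors ran MACS 2.2.5 on 2 pooled libraries as read pairs, keeping 1 fragment at a position, with a q cut-off of 0.05, no control and a genome-wide background, per the file headers. The deposited signal is the fragment pileup at a summit. The deposited fold enrichment is a ratio of pileup to background, the deposited q-value is given as −log10, and lengths are in bp as deposited. The last 3 were used for filters or widths only.

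Summits of 1 interval were joined into a region with the highest pileup, which was divided by the fragments after filtering, per 1000000. Loci are linked by overlap of at least 1 bp. Gene ends were those of 45069 RefSeq genes on GRCm38.p6, on whose assembly the mm10 coordinates of the lists rest. Genes named are the 10 highest and 10 lowest one-to-one loci at protein-coding genes, examples of the loci where 1 region joins the most regions of the other list, the 5 strongest loci, and members of the imprinted, germline and 2-cell lists. Members and lists were chosen with earlier results of these data known. Shares carry Wilson intervals and pileup ratios exact conditional binomial intervals at 95%. Linking was tested on simulated lists and against bedtools 2.31.1. Scripts ran under Python 3.11.15 with pandas 2.3.3, numpy 2.4.6, scipy 1.17.1 and matplotlib 3.10.9. Both lists were also compared after stricter filters, at equal length, with other scales and other overlaps.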

Additional observations from a re-analysis of the deposited data

How the results depend on the processing

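No paired analysis was possible because replicates are pooled in every list, which also prevents leaving one out. The median log2 ratio, 0.34, was 0.33 with a stricter q (−log10 q from 5) and with a stricter fold (enrichment from 4), 0.32 at a scaled pileup of at least 1, 0.39 with equal numbers of regions, 0.38 in the strongest class of loci, 0.30 when every region was paired with its partner of longest overlap and 0.10 with loci over input regions at 0. The last scale, and a minimum pileup of 20 in both lists, were chosen after seeing the data. Loci at least 2-fold higher and lower numbered 1112 and 24 at the stricter q, 1357 and 34 at the stricter fold, 621 and 7 at the scaled minimum, 877 and 538 on the input scale, 540 and 866 with the median at 0 and 241 and 2 with the pileup minimum. Those lower numbered 34 with equal numbers of regions and 1468 with all partners. The median width ratio, 0.09, was 0.06 at the stricter q and fold, 0.04 at the scaled minimum and with all partners and 0.02 with the pileup minimum. Doxorubicin regions that join others numbered 1896, 2210 and 1170 at the stricter q, the stricter fold and the scaled minimum, and vehicle regions 2036 at the last. Joining domains numbered 442 in doxorubicin and 127 in vehicle at the stricter q, 278 in doxorubicin and 88 in vehicle at the scaled minimum and 1109 in doxorubicin and 922 in vehicle when stitched at 1000 bp, and 443 in doxorubicin with equal numbers of regions. The covered ratio, 1.17, was 1.18 at the stricter q and fold and on all chromosomes, 1.19 at the scaled minimum and 1.07 with equal numbers of regions. Of the 92 alternative values of the main results, 50 were unmoved by these rules and 42 moved, and no median or covered ratio changed direction. The order of paired counts turned in 2 settings: fewer loci were higher than lower with the median at 0, and more doxorubicin (3290) than vehicle regions (3006) joined others with equal numbers of regions. The cause was not tested, beyond fewer regions or loci entering the stricter settings. The ratios of the named genes kept their sign in each setting that gave one. Filters and overlap rules keep or drop a pair of regions without changing its ratio, so only a change of scale could have moved these ratios. The genes were also chosen for their ratios, so the kept signs say little. A pileup under 20 gives wide counting intervals, and 11070 one-to-one loci reach it in both lists.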
